A study of Astyanax mexicanus with 78 samples.

Results

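To ask how the gut of old cavefish differs from that of old surface fish, gut RNA of the Mexican tetra, Astyanax mexicanus, was compared between aged Pachón cavefish (the cave morph in the labels) and aged surface fish (the surface morph). The comparison took the gut libraries labelled aged, 4 from cavefish and 3 from surface fish, out of 78 libraries in 20 groups, and covered all 19076 genes of the gut count table. Aged fish were 7 to 8 years old and received no treatment, and both populations were kept in the laboratory under the same temperature and light cycle. Libraries are called cave 5, 6, 7 and 8 and surface 5, 6 and 7 after their replicate numbers, which values listed within a population follow. Young gut libraries of about 1 year (4 from cavefish and 4 from surface fish) and the aged libraries of brain, heart, liver and muscle were used only to set the aged gut values beside them. Sex, the region of gut taken and the relatedness of the fish were not given in the sources used here.

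The gut digests food and absorbs it through enterocytes, the columnar cells of its lining, which carry peptidases, transporters and lipid-handling proteins on or in them. The same lining detoxifies compounds from food, and it lives with reactive oxygen from food, bile and microbes, so that glutathione- and thioredoxin-dependent enzymes are part of its normal equipment. Pachón cavefish live without light and with scarce food, and are known for altered metabolism and for sleep loss, while surface fish live in rivers and have eyes.

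Total counts were between 8670536 and 13871454 in the cave libraries and between 11856701 and 14445324 in the surface libraries. The most abundant gene, which has no symbol here, took 8.47% to 26.3% of the counts in cave libraries and 3.68% to 18.8% in surface libraries. The tissue label fitted some intestinal markers. fabp2, the intestinal fatty acid binding protein, stood at 685 to 8020 CPM (counts scaled to a common library total) in the 7 gut libraries. It stood at no more than 86.5 CPM in the aged libraries of the other tissues. The intestinal genes vil1, cdh17 and mep1a.1 were likewise higher in every gut library than in any of those. slc15a1b, tmprss15, mttp and alpi.1 overlapped with other tissues, as mttp did at 48.9 to 342 CPM in gut and 45 to 329 CPM in liver. Genes specific to liver took 1.55%, 0.132%, 0.541% and 3.07% of the counts in cave 5 to 8 and 0.284%, 0.211% and 0.61% in surface 5 to 7, and their part in the results was not tested beyond a fit without them. In whole tissue, fewer cells of a type and less RNA per cell cannot be told apart.

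In a principal component analysis (PCA) the populations did not overlap on the first component. PC1 held 48.65% of the variance of the 500 most variable genes, with scores of −22.1, −21.8, −17.8 and −30.3 in the cave libraries and 45, 37.2 and 9.71 in the surface libraries. Surface 7 was thus the surface library nearest to the cavefish. The two-sided exact permutation test gave p = 0.0286 for PC1, the smallest that 35 labelings allow, and 0.0572 after adjustment over the first 2 components. On PC2, with 18.19% of the variance, cave scores ran from −21.8 to 17.4 and surface scores from −20.6 to 25.8, and the populations overlapped (exact permutation p = 0.6).

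**Figure D1:**
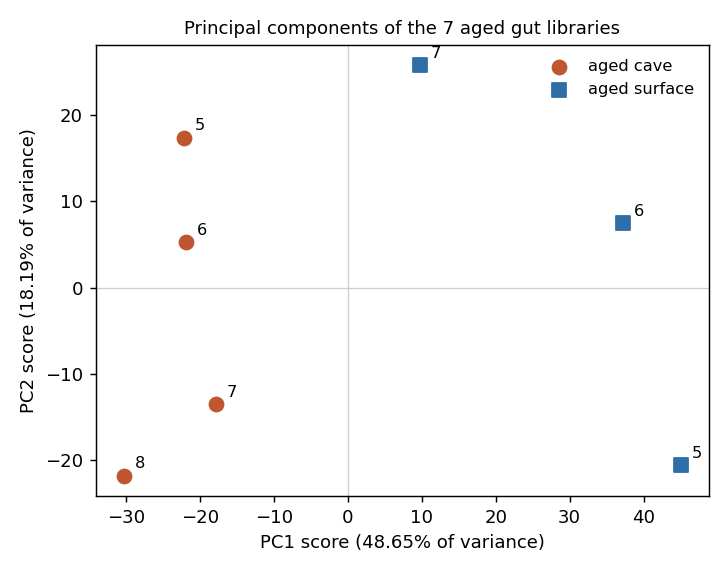
Scores of the 7 aged gut libraries on the first principal component (x axis, 48.65% of the variance) and the second (y axis, 18.19%). Circles are aged cavefish and squares aged surface fish, numbered by replicate. The 4 cave libraries lie left of −17 on PC1 and the 3 surface libraries right of 9, with surface 7 nearest to the cavefish.

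Among genes with a symbol, aged cave and aged surface gut differed in single metabolic and stress-related genes. The ferroptosis suppressor aifm2, the hyaluronan synthase has1, the sulfate transporter slc13a1, the aldose reductase akr1b1.1 (ENSAMXG00000034098) and the glucokinase gck were lower in cavefish. The lactate dehydrogenase gene ldhbb, the vitamin D hydroxylase cyp2r1, the cone channel gene cngb3.2 and the pro-apoptotic gene bik were higher. Lipid-handling and antioxidant genes with a call were all lower in cavefish, while ribosomal protein, barrier and inflammatory genes gave few calls or none. Of all genes tested 2.77% were called lower and 3.14% higher. A second test called none of the lipid-handling genes named here, and each lost its call in at least 1 fit with a library left out.

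Of 14414 genes with an adjusted p, 852 (5.91%) passed an adjusted p of 0.05 in the DESeq2 Wald test, 453 (3.14%) higher and 399 (2.77%) lower in cavefish. The edgeR quasi-likelihood test called 180 of 12104 genes (1.49%), 104 higher and 76 lower, and all 180 were among the DESeq2 calls. Among the calls the size of the log2 fold change had a median of 2.45, and 816 of the 852 changed at least 2-fold. No cave library overlapped any surface library in 729 of the 852 calls, against 2237 (15.5%) of all genes tested. For 380 of the calls surface 7 was the surface library nearest to the cave mean, against 264 for surface 5 and 208 for surface 6. Without surface 7 DESeq2 called 1285 genes, and with 1 other library left out it called between 506 (without cave 7) and 890 (without cave 5). Most calls cannot be named: 1823 tested genes carried a symbol, and of these 44 were called higher and 59 lower.

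Both tests called 9 named genes lower in cavefish that showed no overlap and averaged 100 or more normalized counts in surface fish. Normalized counts are counts divided by a size factor for library depth and composition, 0.905 for cave 5 and 1.354 for surface 5. Of the 9 genes, some were near absent from cave libraries. The most extreme was aifm2, which encodes ferroptosis suppressor protein 1, an enzyme that keeps membrane lipids from peroxidation. It had 0 counts in all 4 cave libraries, against 169.1, 527 and 175.8 normalized counts in surface 5 to 7, so that it was at least 350-fold lower in cavefish (floor of 3 counts over the 4 cave libraries; DESeq2 adjusted p = 2.09e-15, edgeR adjusted p = 0.0115). The hyaluronan synthase gene has1 had 0, 1.1, 1.1 and 0 normalized counts in cave libraries, against 218.6, 57 and 42.8 in surface libraries. With 2 counts over the cave libraries and 413 over the surface libraries, has1 was 206-fold lower in cavefish, with a 95% counting interval from 56.6 to 1700 (adjusted p = 2.12e-07 with DESeq2 and 0.00935 with edgeR). Both genes were thus near absent from cave libraries and present in every surface library. Reads of both populations were counted on 1 assembly, and for aifm2, which was near 0 in every cave tissue, a diverged, a lost and a silent gene cannot be told apart in these counts. has1 was counted in other cavefish tissues, with 15.8 to 49.8 CPM in cave heart against 1.37 to 82.9 in surface heart, and 6.15 to 7.47 in cave brain against 3.22 to 9.95 in surface brain, and it was not called there (log2 fold change −0.35 in heart and −0.08 in brain, DESeq2 adjusted p = 0.894 and 0.927). Calls with at most 3 counts over all libraries of a population were about equally many in each direction, 50 for cavefish and 53 for surface fish.

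The sodium-sulfate cotransporter gene slc13a1, which serves sulfate uptake at the enterocyte surface, had 40.9, 21.1, 88.5 and 91.6 normalized counts in cave libraries, against 4790, 1234.2 and 2807.6 in surface libraries. Its log2 fold change was −5.61 ± 0.62 (SE; adjusted p = 2.23e-16 with DESeq2, 0.00851 with edgeR), and the lowest surface library stood more than 10-fold above the highest cave library. The aldose reductase gene akr1b1.1 (ENSAMXG00000034098), whose enzyme reduces glucose and reactive aldehydes, had 1530.6, 395.2, 467.7 and 228.4 against 8365, 17238.1 and 9003.6 normalized counts in cave and surface libraries (log2 fold change −4.14 ± 0.65). A further gene with the symbol akr1b1.1 was not called, and whether they share reads was not tested. Glucokinase, gck, the high-capacity hexokinase best known from liver and pancreas, had 29.8, 12.6, 62.3 and 30.9 normalized counts in cavefish and 870.8, 517 and 195.5 in surface fish (log2 fold change −3.96 ± 0.64). The populations did not overlap in any of the 3 genes, but libraries of a population spread widely, as from 228.4 to 1530.6 in cavefish for akr1b1.1 and from 195.5 to 870.8 in surface fish for gck.

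The stress-responsive gene niban1b had 122.7, 58, 59 and 79.7 normalized counts in cave libraries, against 1062.2, 1059.7 and 356.3 in surface libraries (log2 fold change −3.37 ± 0.50). Surface 7 was the lowest surface library for niban1b, yet stood well above every cave library. Its paralog niban1a, not among the named genes, was called higher in cavefish, with overlap (log2 fold change 2.62, DESeq2 adjusted p = 0.0163, edgeR 0.157). bin2a, whose mammalian counterpart is a leukocyte protein that binds curved membranes, averaged 264 ± 75.4 normalized counts in cavefish and 1434 ± 495 in surface fish (SD, n = 4 and 3; log2 fold change −2.44 ± 0.39). dhrs1, a short-chain dehydrogenase/reductase gene, averaged 1370 ± 211 and 4135 ± 557 normalized counts in cavefish and surface fish (log2 fold change −1.59 ± 0.27), and tmem254 averaged 1713 ± 587 and 7475 ± 1218 (log2 fold change −2.13 ± 0.37). DESeq2 adjusted p-values of niban1b, bin2a, dhrs1 and tmem254 were at most 1.24e-06 and edgeR adjusted p-values at most 0.0353. All 9 genes kept their DESeq2 call when any 1 library was left out.

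Among genes higher in cavefish, cngb3.2 stood out. It encodes a subunit of the cyclic nucleotide-gated channel known from cone photoreceptors, and had 194.5, 446.8, 207.6 and 173.7 normalized counts in cave gut, against 6.6, 2.1 and 1.2 in surface gut (log2 fold change 6.20 ± 0.67, adjusted p = 1.69e-17 with DESeq2 and 0.00711 with edgeR). Cave 6 was about 2 times as high as the other cave libraries, and without it the call remained. ldhbb, a lactate dehydrogenase B gene, had 269.7, 254, 217.5 and 80.9 normalized counts in cave libraries, against 10.3, 10 and 15 in surface libraries (log2 fold change 4.14 ± 0.53, adjusted p = 3.52e-12 with DESeq2 and 0.00851 with edgeR). Its paralog ldhba did not pass the test and overlapped, at 3009.4 to 9330.9 normalized counts in cavefish and 1727.7 to 8145.1 in surface fish.

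cyp2r1, which encodes a hydroxylase in the activation of vitamin D, had 245.3, 219.2, 188 and 209.3 normalized counts in cave libraries, against 30.3, 41.3 and 19.7 in surface libraries (log2 fold change 2.80 ± 0.36, adjusted p = 3.2e-12 with DESeq2 and 0.00765 with edgeR). bik, a pro-apoptotic gene of the BH3-only class, had 522.7, 814.6, 827.2 and 648.3 against 178, 150.3 and 230.2 normalized counts in cavefish and surface fish (log2 fold change 1.92 ± 0.32, adjusted p = 4.08e-07 with DESeq2 and 0.0184 with edgeR). Both genes were tight within each population, with no overlap. A pair of genes that share the symbol si:ch211-173a9.6 was also higher in cavefish, by 3.27 ± 0.53 (ENSAMXG00000038459) and 2.68 ± 0.50 (ENSAMXG00000014315) on the log2 scale. As near-identical copies can share reads, their separate values are uncertain, and in both cave 8 was the highest library.

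**Figure D2:**
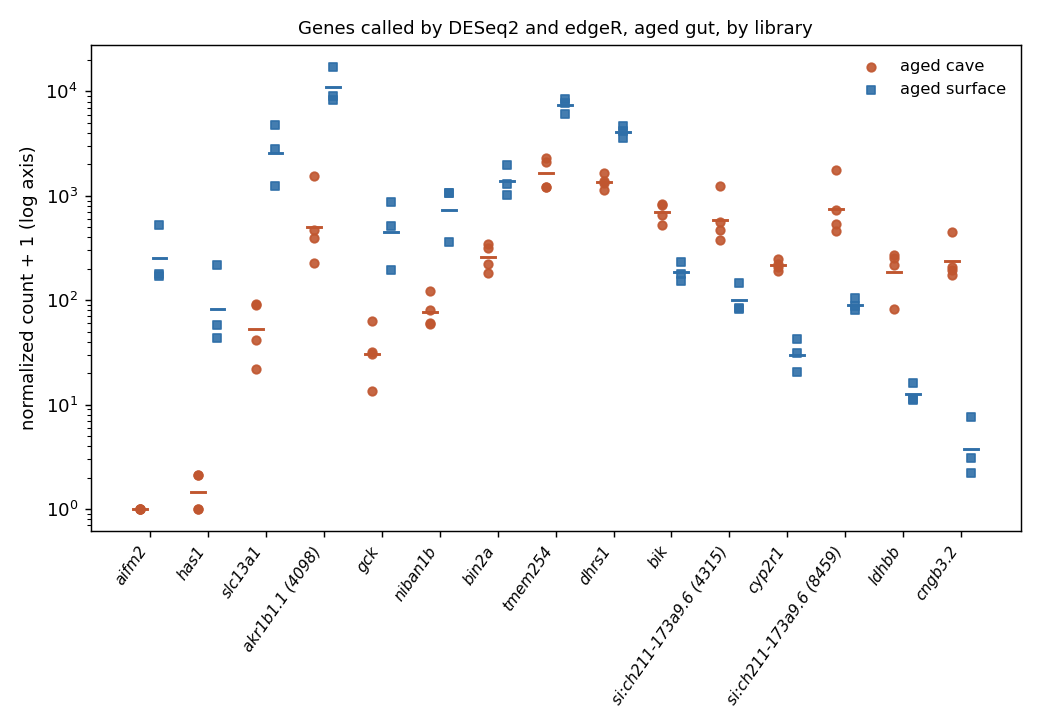
Normalized counts plus 1 (log axis) of the named genes that DESeq2 and edgeR both called without overlap, in the 4 aged cave (circles, left of each pair) and 3 aged surface gut libraries (squares, right). Bars are geometric means, and the 2 genes named si:ch211-173a9.6 carry the last 4 digits of their identifiers, as does akr1b1.1. The 9 genes on the left were lower and the 6 on the right higher in cavefish, and aifm2 and has1 lie at the floor in cavefish.

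Scarcer named genes that both tests called were hoxd3a, TENM2 (ENSAMXG00000005975) and rlbp1a, higher in cavefish, and ryr1a and sox11b, lower, of which TENM2, rlbp1a and sox11b were chosen after their values were seen. hoxd3a, a homeobox gene of positional identity, had 47.5, 50.6, 71 and 57.1 normalized counts in cave libraries, against 13.3, 15.7 and 16.2 in surface libraries (log2 fold change 1.92 ± 0.41). ryr1a, the calcium release channel of skeletal muscle, averaged 3.05 ± 1.86 normalized counts in cavefish and 45.9 ± 21.6 in surface fish (SD, n = 4 and 3). The developmental transcription factor gene sox11b had 4.4, 6.3, 5.5 and 3.6 normalized counts in cave libraries, against 14.8, 53.4 and 109.9 in surface libraries, which spread widely. rlbp1a, the retinaldehyde-binding protein of the visual cycle, had 61 counts over the cave libraries and 2 over the surface libraries, which is 30.6-fold higher in cavefish with a 95% counting interval from 8.12 to 258. For this TENM2, a teneurin adhesion receptor gene, the totals were 132 and 3 counts, 44.2-fold higher in cavefish with an interval from 14.8 to 217. Another gene with that symbol was called higher in cavefish by DESeq2 (adjusted p = 0.00437), not by edgeR (0.0796), and is not among the named genes. The intervals cover counting error only.

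Genes without a symbol showed changes of the same kind. By the same criteria 43 of them were higher and 37 lower in cavefish. ENSAMXG00000037727 had 264.1, 519.5, 621.8 and 547.2 normalized counts in cave libraries, against 3, 0.7 and 3.5 in surface libraries (log2 fold change 7.76 ± 0.67, adjusted p = 3.24e-27 with DESeq2 and 0.00268 with edgeR). ENSAMXG00000009538 had 28.7 to 202.2 normalized counts in cavefish and 0 counts in every surface library, at least 158-fold higher in cavefish (floor of 3 counts over the surface libraries). In the other direction, ENSAMXG00000032562 had 3.3, 0, 0 and 3.6 normalized counts in cave libraries, against 8246.1, 1267 and 633.9 in surface libraries, and ENSAMXG00000034508 had 0 counts in cavefish, at least 378-fold lower than the 113.4 to 607.2 normalized counts of the surface libraries. Each of the 4 was at or near the floor in all libraries of a population.

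Lipid absorption and the enterocyte surface were examined through a list of enterocyte genes. Of 34 tested members 3 were lower and 0 higher in cavefish by DESeq2 (edgeR 1 lower and 0 higher), namely slc13a1, apoa1a and fabp2. The DESeq2 share over all genes tested was 2.77% lower and 3.14% higher. Unadjusted p was under 0.05 for 7 lower and 1 higher members, beside 1432 lower and 1233 higher of all 14414 genes tested. The median log2 fold change of the list was −0.64, beside −0.06 over all genes tested. apoa1a, the main protein of high-density lipoprotein, had 506.2, 3847.5, 1626.1 and 1215.6 normalized counts in cave libraries, against 27561.3, 9575.8 and 3141.9 in surface libraries (log2 fold change −2.90 ± 0.78, DESeq2 adjusted p = 0.00689, edgeR 0.149). fabp2, which carries fatty acids inside enterocytes, had 10499, 24730.9, 10194.5 and 13738.4 in cavefish and 74280.4, 42855.6 and 21152.5 in surface fish (log2 fold change −1.64 ± 0.52, DESeq2 adjusted p = 0.034, edgeR 0.17). In both genes cave 6, the highest cave library, overlapped surface 7, the lowest surface library.

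Other enterocyte genes had estimates on either side of 0 and no call. mttp, the lipid transfer protein that loads lipoproteins, had 750.4 to 901.6 normalized counts in cavefish and 3165, 3099.4 and 714.9 in surface fish (log2 fold change −1.50 ± 0.51, DESeq2 adjusted p = 0.054). The brush-border protein gene vil1 had 1419.5 to 2953.5 and 2155.2 to 9283.1, the glucose transporter gene slc5a1 2472.2 to 39445.3 and 5390.8 to 11030.7, and the apolipoprotein B gene apoba 10276.9 to 67951.1 and 13379.8 to 79895.5 normalized counts in cavefish and surface fish. The median of the list rested on surface 5: without that library it was 0.58, with 23 of 34 members higher in cavefish and 1 called lower, and apoa1a and fabp2 lost their calls. fabp2 also lost its call without cave 5, cave 7, cave 8 or surface 6 (adjusted p at most 0.257). Without surface 7 the median was −1.06 and 6 members were called lower. slc13a1 was called with any 1 library left out.

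Antioxidant genes with a call were lower in cavefish. Of 22 tested members 4 were lower and 0 higher by DESeq2, and 1, aifm2, by edgeR. Over all 14414 genes tested, DESeq2 called 2.77% lower and 3.14% higher. Estimates were below 0 in 7663 of those 14414 genes and in 19 of the 22 members. The median log2 fold change of the list was −0.60, also with aifm2 set at its bound, and −0.35 without surface 5. osgn1, an oxidative stress-induced growth inhibitor gene, had 1540.6, 1288.8, 1816.2 and 1076.5 normalized counts in cave libraries, against 3430.9, 3340.1 and 3318.9 in surface libraries (log2 fold change −1.23 ± 0.29, DESeq2 adjusted p = 0.000869, edgeR 0.0912). The populations were well separated in osgn1 and the surface libraries nearly equal.

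mgst1.2, a membrane-bound glutathione S-transferase gene, averaged 1613 ± 452 normalized counts in cavefish and 4218 ± 2045 in surface fish (SD, n = 4 and 3), and txnrd3, a thioredoxin reductase gene, averaged 973 ± 497 and 2976 ± 1720. Their DESeq2 adjusted p-values were 0.0432 and 0.0436, and both calls were lost when cave 6, cave 7, cave 8, surface 5 or surface 6 was left out. Without cave 8 the list held 2 calls. The classic enzymes overlapped between populations and gave no call: superoxide dismutase 1 (sod1) had 2163.7 to 4828.6 normalized counts in cavefish and 3544.5 to 8849.5 in surface fish, catalase (cat) 3665.8 to 7656 and 2521.9 to 15665.6, and gpx4a, a glutathione peroxidase gene whose enzyme reduces lipid peroxides, 8570.5 to 41002.4 and 6801.2 to 31343.

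Called genes of fatty acid oxidation and storage were lower in cavefish as well. Of 26 tested members 3 were lower and 0 higher by DESeq2, and 0 were called by edgeR. The DESeq2 share over all genes tested was 2.77% lower and 3.14% higher. Unadjusted p was under 0.05 for 9 lower and 1 higher members, beside 1432 and 1233 of the 14414 genes tested. The median log2 fold change of the list was −0.67. acaa1 and hsd17b4 encode enzymes of peroxisomal fatty acid oxidation, and cidec a protein that enlarges lipid droplets. acaa1 had 719.5, 976.9, 1275.3 and 798.1 normalized counts in cave libraries, against 8353.9, 1759.1 and 1646.2 in surface libraries (log2 fold change −2.06 ± 0.61, adjusted p = 0.0181). hsd17b4 had 2985, 3811.6, 2494.8 and 1971 in cavefish and 18307.7, 5535.7 and 5921.8 in surface fish (log2 fold change −1.82 ± 0.51, adjusted p = 0.011). In both, surface 5 was far above the other surface libraries, and without it neither was called. acaa1 lost its call in 4 of the 7 fits with 1 library left out and hsd17b4 in 3.

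phyh, the peroxisomal enzyme that starts the breakdown of branched fatty acids, was chosen after its values were seen, and had the same shape, with 1497.5 to 2292.1 normalized counts in cavefish and 13459.3, 4033 and 2395.8 in surface fish (log2 fold change −1.75 ± 0.58, DESeq2 adjusted p = 0.0427, edgeR 0.185). Its call was lost in 6 of the 7 fits with 1 library left out, each but that without surface 7, and without surface 5 its log2 fold change was −0.71. cidec was highest in surface 7 instead, at 215.5, 167.6, 196.7 and 312.8 normalized counts in cave libraries and 535.5, 398.8 and 1173 in surface libraries (log2 fold change −1.65 ± 0.47, DESeq2 adjusted p = 0.0112, edgeR 0.11), and its call was lost without cave 6, cave 7 or surface 7. plin2, which coats lipid droplets, did not pass the test at 342 to 1508.5 and 619 to 8465.6 normalized counts in cavefish and surface fish.

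Glucose metabolism held called genes in both directions. Of 29 tested members 2 (ldhbb and pfklb) were higher and 1 (gck) was lower, with a median log2 fold change of 0.17. Over all genes tested 3.14% were called higher and 2.77% lower, with a median of −0.06. pfklb, the liver-type phosphofructokinase of glycolysis, had 347, 265.6, 404.3 and 592.4 normalized counts in cave libraries, against 181, 185.2 and 101.8 in surface libraries (log2 fold change 1.36 ± 0.41, DESeq2 adjusted p = 0.0205, edgeR 0.123), and its call was lost in 5 of the 7 fits with 1 library left out. pck1, the entry enzyme of gluconeogenesis, spread from 4387.5 to 83220.4 normalized counts in cavefish and from 2208.5 to 23782 in surface fish and did not pass the test (adjusted p = 0.205). Cave 5 was the low cave library for pck1 and cave 8 the high one.

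Of 18 tested genes of xenobiotic and bile acid metabolism, 1 (cyp2r1) was higher and 2 were lower in cavefish. Over all genes tested 3.14% were called higher and 2.77% lower. The median log2 fold change of the list was −0.72 (−0.26 without surface 5). abcb11a, the bile salt export pump, had 49.7, 149.6, 197.8 and 231.9 normalized counts in cave libraries, against 934.4, 321.9 and 489.3 in surface libraries (log2 fold change −1.89 ± 0.58, DESeq2 adjusted p = 0.0258, edgeR 0.15). ugt5a1, a glucuronosyltransferase gene of detoxification, had 337.1, 177, 133.3 and 136.8 in cavefish and 927, 685.8 and 305.4 in surface fish (log2 fold change −1.71 ± 0.52, DESeq2 adjusted p = 0.022, edgeR 0.135). With 1 library left out the call of abcb11a was lost in 3 of 7 fits (adjusted p at most 0.212) and that of ugt5a1 in 5 (at most 0.175). The cave libraries with the largest liver-specific shares, cave 5 and cave 8, were the lowest and the highest cave libraries for abcb11a. What liver RNA adds to the abcb11a values was not tested. Of the 120 tested liver-specific genes 6 were called higher and 0 lower in cavefish (5%, beside 5.91% of all genes tested). Their median log2 fold change was 1.03. With all liver-specific genes left out before the fit, 864 genes were called.

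ugdh makes UDP-glucuronate, which both hyaluronan synthases and glucuronosyltransferases use, and was chosen after its values were seen. It had 545.9, 618.6, 382.5 and 490.1 normalized counts in cave libraries, against 4361.6, 2793.8 and 765.8 in surface libraries (log2 fold change −2.37 ± 0.55, DESeq2 adjusted p = 0.000847, edgeR 0.08). The populations did not overlap, and surface 7 was the lowest surface library. The retinol dehydrogenase-like gene sdr16c5a, also chosen after its values were seen, averaged 144 ± 38.3 normalized counts in cavefish and 781.5 ± 591 in surface fish (SD, n = 4 and 3; log2 fold change −2.44 ± 0.53, DESeq2 adjusted p = 0.000245, edgeR 0.0571).

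**Figure D3:**
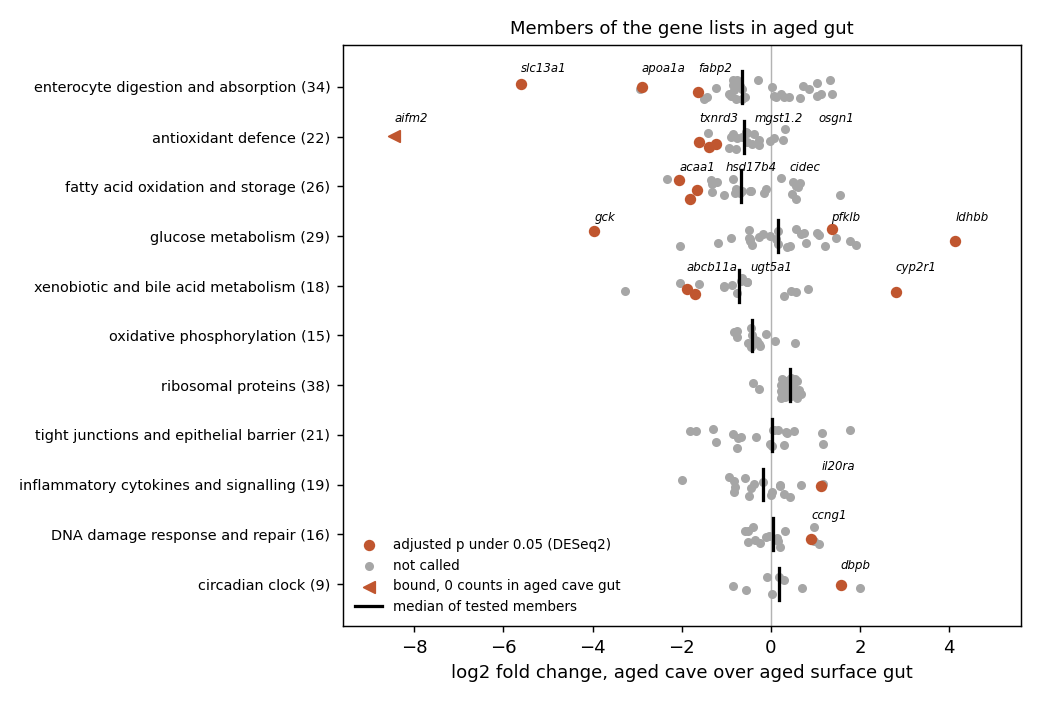
Log2 fold change (aged cave over aged surface gut, x axis) of the tested members of 11 gene lists (y axis, number tested in parentheses). Large red points passed the DESeq2 test and are named in their order from the left, grey points did not pass, black bars are list medians, and the triangle is the bound of aifm2. Called members of the enterocyte, antioxidant and fatty acid lists all lie left of 0, and the ribosomal list has no call.

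Clock, damage and immune lists held single calls, where 5.91% of all genes tested were called. dbpb, a transcription factor gene driven by the circadian clock, had 687.4, 545.9, 709.2 and 650.6 normalized counts in cave libraries, against 217.9, 129.6 and 310 in surface libraries (log2 fold change 1.57 ± 0.37, DESeq2 adjusted p = 0.00119, edgeR 0.0694). It was the only one of 9 tested clock genes with a call. The light-responsive clock gene per2 had 203.4 to 698.5 normalized counts in cavefish and 359.6 to 864.2 in surface fish (DESeq2 adjusted p = 0.418). Tissue was taken within the first hours of the light phase, so a single phase of the daily cycle was sampled.

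ccng1, a cyclin G gene known as a target of p53, was the only called member of 16 DNA damage genes, with 7505.1, 7323, 6950.1 and 6785.9 normalized counts in cavefish and 4066.2, 2800.3 and 4633.1 in surface fish (log2 fold change 0.90 ± 0.28, DESeq2 adjusted p = 0.0272, edgeR 0.186). Its populations did not overlap, but the call was lost in 6 of the 7 fits with 1 library left out, each but that without surface 7. The damage repair gene ddb2 had 172.8 to 531.7 normalized counts in cavefish and 153.1 to 389.8 in surface fish, and cpdp had 48.5 to 132 and 101.8 to 168.4, and neither passed the test (adjusted p = 0.872 and 0.584).

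il20ra, a receptor subunit for cytokines of the IL-20 group, was the only called gene of 19 inflammatory genes and was higher in cavefish, with 863.1, 1093.9, 1405.3 and 1229.9 normalized counts against 584.3, 423 and 568 in surface libraries (log2 fold change 1.13 ± 0.30, DESeq2 adjusted p = 0.0065, edgeR 0.112; call lost in 3 of the 7 fits with 1 library left out, adjusted p at most 0.106). csf3r, the receptor of the granulocyte growth factor and the only tested myeloid marker, was lower, with 67.0 ± 16.3 normalized counts in cavefish and 172 ± 75.7 in surface fish (SD, n = 4 and 3; log2 fold change −1.36 ± 0.43, DESeq2 adjusted p = 0.0308), and lost its call in 5 of the 7 fits with 1 library left out. The collagen chaperone gene serpinh1b, the only one of 22 tested heat shock and protein folding genes with a call, averaged 51.0 ± 38.4 and 303 ± 111 normalized counts (log2 fold change −2.57 ± 0.64, DESeq2 adjusted p = 0.00242), and the matrix gene thbs1a 10.6 ± 7.68 and 61.0 ± 13.2 (log2 fold change −2.52 ± 0.61, DESeq2 adjusted p = 0.00152), each first in cavefish and then in surface fish. Of the fibroblast and matrix list, thbs1a was the only one of 10 tested members with a call, and collagen genes such as col4a1, at 33.7 to 149.9 normalized counts in cavefish and 33.5 to 106.8 in surface fish, overlapped.

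The light sensing list held 4 tested members, with 3 estimates below 0 and a median log2 fold change of −0.51. Its only call was crx, the transcription factor gene of photoreceptors. crx had 43 counts over the cave libraries and 3 over the surface libraries, 14.4-fold higher in cavefish with a 95% counting interval from 4.6 to 72.5 (DESeq2 adjusted p = 0.0189), and edgeR gave no adjusted p for it. The call was lost in 4 of the 7 fits with 1 library left out (adjusted p at most 0.122). The list members rho, opn1lw1 and gnat2, which encode rod and cone phototransduction proteins, had 0 counts in all 7 libraries. Of 14 genes of regional patterning hoxd3a was the only one called, with a list median of −0.11. The posterior Hox genes hoxc13a and hoxc12a overlapped between populations, at 36.9 to 80.7 and 27.4 to 78.5 normalized counts in cavefish and 13.5 to 58.4 and 12.8 to 53.2 in surface fish.

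Several large functional groups gave no call. Of 38 ribosomal protein genes 36 had estimates above 0, beside 6751 of all 14414 genes tested. The median log2 fold change of the 38 was 0.42, with an unadjusted p under 0.05 for 4. Over all genes tested the unadjusted p was under 0.05 for 1233 higher and 1432 lower genes. rpl13a had 24442.5 to 31441.8 normalized counts in cavefish and 18264.1 to 27189.9 in surface fish. Of 15 oxidative phosphorylation genes 13 had estimates below 0, beside 7663 of all 14414 genes tested. The median of the 15 was −0.42 (0 at an unadjusted p under 0.05). The medians were 0.03 for 21 tight junction and epithelial barrier genes, −0.40 for 11 genes of cholesterol synthesis and uptake, −0.38 for 8 proliferation genes and 0.46 for 7 aging and senescence genes, with unadjusted p under 0.05 for 6, 1, 2 and 0 of them. cdkn1a, a cell cycle inhibitor known as a senescence marker, had 46.4 to 244.8 normalized counts in cavefish and 104.1 to 327.6 in surface fish.

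Markers of other cell types gave 3 calls, ryr1a of 5 skeletal muscle, csf3r of 1 myeloid and thbs1a of 10 fibroblast genes tested, all lower in cavefish. DESeq2 called 2.77% of all genes tested lower and 3.14% higher. The summed level of the skeletal muscle list was 277 to 423 CPM in cavefish and 337 to 1160 CPM in surface fish. That of the smooth muscle genes tagln and MYOCD was 264 to 978 and 957 to 1030 CPM, and that of the fibroblast list 27.8 to 82.1 and 41.5 to 123 CPM. Only csf3r of the 2 myeloid genes with a symbol was tested. The summed level of these 2 genes was 6.22 to 167 CPM in cavefish and 12.5 to 30.4 CPM in surface fish. No call was made among 2 smooth muscle, 1 goblet, 3 enteroendocrine, 1 erythrocyte, 1 T and NK cell, 1 endothelial and 1 gonad gene tested, nor among 2 interferon response, 4 reactive oxygen production and 3 iron and haem genes. Their part in the other differences was not tested. Pancreatic, gastric, B cell, hepatocyte, antigen presentation and complement genes carried no symbol here and were not analysed.

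Whether these differences were already there in young fish was read from the young gut libraries, which share no library with the aged contrast. In young gut 1323 of 15335 genes (8.63%) were called between cavefish and surface fish. Of the 850 aged calls with a young fold change, 722 (84.9%) pointed the same way in young fish, beside 61.2% of all 14204 genes tested at both ages. Called at both ages were 295 genes, 34.6% of the aged and 22.3% of the young calls, and 290 of these had the same direction. The median young log2 fold change of the aged calls, taken in the aged direction, was 0.92, against 2.45 in aged fish, where they were selected.

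On size factors of all 15 gut libraries, aifm2 had 0 counts in the 4 young cave libraries too, against 56.6, 58.9, 46.6 and 36.9 normalized counts in young surface fish (young DESeq2 adjusted p = 5.55e-11). has1 had at most 1.2 normalized counts in young cavefish and 14.2 to 43.5 in young surface fish (adjusted p = 1.02e-06), and ldhbb 195.1 to 439 and 6.6 to 81 (adjusted p = 5.63e-05). akr1b1.1 (ENSAMXG00000034098) had 285.3 to 961.1 and 1449.5 to 3363.7 (adjusted p = 0.000151). These 4 genes thus differed in the same direction at both ages. sox11b was also lower in young cavefish (log2 fold change −4.23, DESeq2 adjusted p = 5.81e-12). The young difference did not pass the test for slc13a1 (−2.63), cyp2r1 (1.90) or cngb3.2 (1.68), whose interactions did not pass either. In young surface gut cngb3.2 had 0, 130.3, 108.4 and 181.8 normalized counts, and in young cave gut 168.3 to 490.1 (interaction DESeq2 adjusted p = 0.0554). TENM2 (ENSAMXG00000005975) overlapped in young gut as well, at 65.6 to 142.1 in cavefish and 6.6 to 98.8 in surface fish. hhla2b.1, chosen after its values were seen, belongs to an immune co-receptor family and had 124.7 to 193.3 normalized counts in the young cave libraries. It had 182.7, 133.5 and 162.4 in cave 5, 7 and 8, but 1.1 in cave 6, against 3.6 to 22.4 in the 7 surface libraries.

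The change of the population difference with age was tested by the population by age interaction over all 15 gut libraries, which called 218 of 14559 genes (1.5%) by DESeq2 and 14 by edgeR. Of the 852 aged calls 105 also had a called interaction, 12 of them by edgeR as well. In 102 of the 105 the absolute fold change was larger in aged than in young fish, and in 67 the young estimate pointed the other way. Since the 105 genes were chosen for a difference in aged gut, that is a description. The group whose mean lay farthest from the other 3 was aged surface fish in 89 of the 105, aged cavefish in 14, and young cavefish and young surface fish in 1 each. Without surface 7 the interaction called 488 genes, and without cave 5 of the aged group 419.

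Among these genes with a symbol niban1b had the smallest interaction p. On size factors of all 15 libraries it had 130, 60.1, 60.6 and 84.3 normalized counts in aged cavefish, 1143.1, 1132.8 and 369.8 in aged surface fish, 84.3 to 126.2 in young cavefish and 66.1 to 124.4 in young surface fish. Its interaction was −3.51 ± 0.56 on the log2 scale (adjusted p = 6.29e-07 with DESeq2, 0.0147 with edgeR), and only the aged surface libraries stood apart from the rest. ei24, a p53-induced gene linked to cell death and autophagy, had the opposite sign, with 262.3, 288.6, 328.6 and 285.7 in aged cavefish, 155.8, 123.3 and 133.3 in aged surface fish, 189.9 to 247.7 in young cavefish and 238.4 to 338.2 in young surface fish (interaction 1.48 ± 0.26, adjusted p = 6.91e-06 with DESeq2, 0.0316 with edgeR).

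By DESeq2, but not by edgeR, osgn1 changed direction with age. It had 1632.5, 1336.8, 1863.9 and 1139.1 normalized counts in aged cavefish and 3692.4, 3570.4 and 3444.3 in aged surface fish. Young cavefish had 967 to 2991.7 and young surface fish 510.4 to 1013.2, which overlapped. In young fish osgn1 was higher in cavefish (log2 fold change 1.38, DESeq2 adjusted p = 0.0128, edgeR 0.0839). Its interaction was −2.63 ± 0.51 (DESeq2 adjusted p = 0.000202, edgeR 0.0675). dhrs1 (981 to 1369.3 in young cavefish, 1271.9 to 1688 in young surface fish), bin2a (154.3 to 497.6 and 233.9 to 388.5) and gck (18.7 to 59.9 and 38.8 to 97.5) overlapped between the young populations, and their interactions were −1.31 ± 0.26, −2.53 ± 0.52 and −3.12 ± 0.79 with DESeq2 adjusted p-values of 0.000336, 0.00057 and 0.011. By edgeR their adjusted p-values were 0.118, 0.0854 and 0.153. The interaction of gck was no longer called without surface 5.

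**Figure D4:**
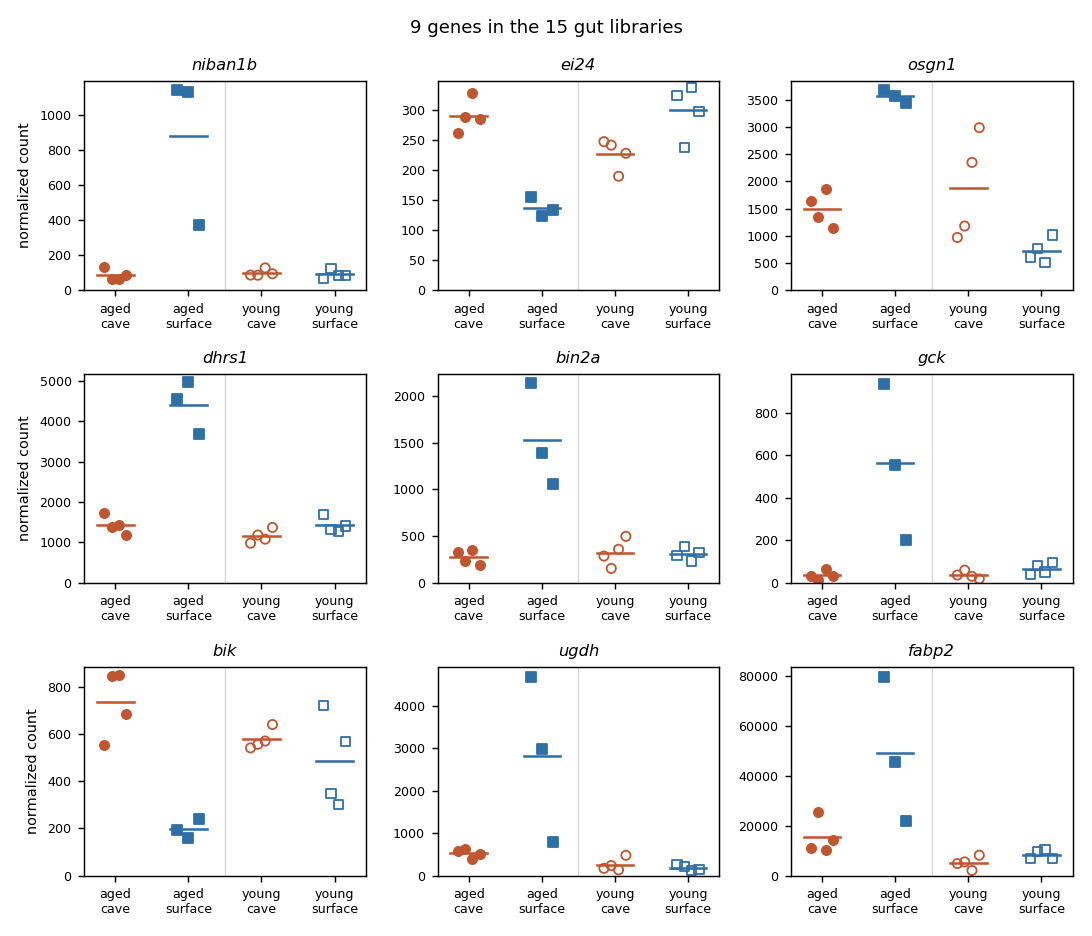
Normalized counts (linear axes starting at 0, size factors of all 15 gut libraries) of 9 genes in aged cave, aged surface, young cave and young surface gut, with 1 point per library and a line at each group mean. Filled points are aged and open points young fish, circles cavefish and squares surface fish. In niban1b, dhrs1, bin2a, gck and ugdh the aged surface libraries stand above the other 3 groups, in ei24 and bik below, and fabp2 is shown as an aged call whose interaction was not called.

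How far the gut differences extend to other organs was read from the same aged contrast in 4 other tissues. These are other libraries, but they may come from the same fish, so the tissues are not independent. DESeq2 called 2384 genes in aged brain (14.8%), 1137 in heart (7.61%), 563 in liver (4.5%) and 556 in muscle (3.99%). Of the 852 gut calls, 247 were called in the same direction in brain, 232 in heart, 165 in liver and 130 in muscle, which is 29%, 27.2%, 19.4% and 15.3% of the gut calls and 10.4%, 20.4%, 29.3% and 23.4% of the calls of those tissues. In none of the 4 other tissues were 470 of the gut calls called in the same direction, and in all of them 64 were, 38 higher and 26 lower. No difference between tissues was tested. The labels of the aged cave heart libraries conflict, as their description says young and their age attribute says aged. The attribute was used, so the aged heart values and the genes called in all 5 tissues rest on it.

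Of these 64 genes 7 are named here. aifm2 had 0 counts in cave gut, brain and liver. It had 0 to 0.261 CPM in cave heart (2 counts over the libraries) and 0 to 0.512 CPM in cave muscle (8 counts). Surface fish had 12.8 to 51.2 CPM in gut, 13.9 to 22 in brain, 1.27 to 6.05 in heart, 0.182 to 3.22 in liver and 0.394 to 2.82 in muscle. In muscle the populations thus overlapped. cngb3.2 was not confined to the gut, with 9.57 to 13.7 CPM in cave brain and 0.825 to 3 in surface brain, and 13.2 to 20.8 and 0 to 1.29 in heart. akr1b1.1 (ENSAMXG00000034098) was lower in cavefish in all 5 tissues, with log2 fold changes of −4.14 in gut, −2.65 in brain, −2.85 in heart, −3.93 in liver and −3.30 in muscle. On the CPM scale its level was far higher in surface gut, 656 to 1680, than in the other surface tissues, 13 to 183.

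niban1b was also lower in every aged cave tissue, by −1.94 in brain, −1.63 in heart, −3.88 in liver and −1.62 in muscle on the log2 scale, and dbpb was higher, by 2.12, 2.28, 2.21 and 2.19. serpinh1b was lower and il20ra was higher in all 5. il20ra differed least in gut, at 56.3 to 119 CPM in cave and 41.1 to 63.1 CPM in surface libraries, while in brain, heart, liver and muscle it stood at 1.02 to 11.8 CPM in cavefish and at no more than 0.905 CPM in surface fish.

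**Figure D5:**
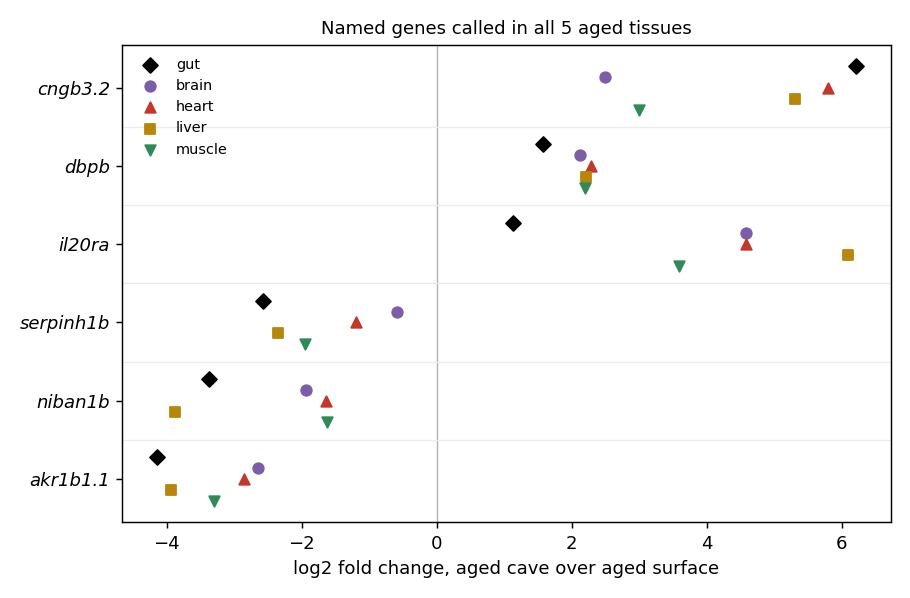
Log2 fold change (aged cave over aged surface, x axis) in gut, brain, heart, liver and muscle for 6 named genes called in the same direction in all 5 tissues. aifm2 is left out because it had 0 counts in cave gut, brain and liver. The points of each gene lie on 1 side of 0, and il20ra at 1.13 in gut lies below its values in the other 4 tissues.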

How the data were processed

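RNA of gut and 4 other tissues was sequenced from aged (7 to 8 years) and young (about 1 year) fish by poly(A) selection. The deposited tables hold whole-number read counts per gene, which the authors made with STAR (version not given in the sources used here) on the Astyanax_mexicanus-2.0 assembly with Ensembl release 108. Whether strand was used and how reads with several matches were counted is not given in the sources used here. Each row names a gene, and 0 per-sample columns were left out.

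From the counts, aged cavefish (n = 4) and aged surface fish (n = 3) were compared with the DESeq2 Wald test (version 1.42.0, R 4.3.3) with its default filters, following the study's methods, and with the edgeR quasi-likelihood test (version 4.0.16, genes kept by its expression filter) beside it. A call is a Benjamini-Hochberg adjusted p under 0.05. DESeq2 gave no adjusted p to 4662 of the 19076 genes. Fold changes are cavefish over surface fish. The young contrast, the population by age interaction (15 gut libraries) and the aged contrast of each other tissue were fitted alike. PCA used variance-stabilized counts of the 500 most variable genes. Both tests were tested on simulated counts drawn with the gene-wise spread that DESeq2 fitted, with 200 abundant genes changed. There DESeq2 recovered more of the changed genes and made more false calls than edgeR. Outlying libraries were not simulated, so what this means for the calls in these data was not tested. The labels do not say that each library is a separate fish. The paper states that at least 4 fish were dissected per age and population group. The p-values measure the spread between these samples, and how much of it is technical was not tested.

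Symbols, taken from tables of another experiment in the study's supplement that list genes responding in UV-treated larvae, and for ddb2 from its methods, cover 2076 of the genes. The named genes and lists are therefore a selected subset. Named were the 10 genes with a symbol and the largest change in each direction that both tests called without overlap and with at least 100 normalized counts in the higher group, up to 4 called members of each list and further members that a sentence on the list needs, up to 5 genes called for the interaction or in all 5 tissues, the genes with most counts, and genes the study names. Only 9 lower and 6 higher genes met the first rule. Not every called gene with a symbol is reported here. Genes that no part of the rule names are marked as chosen after their values were seen. The gene lists and comparisons were chosen with earlier results of these data known. Genes were taken as specific to a tissue by their median over all its libraries, young and aged. It had to reach 100 CPM and be 16 or more times that of each other tissue. A young cave heart library was left out of these medians. Alternatives were other size factors, filters, fits with all gut groups or a replicate block, and each library left out in turn.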

Additional observations from a re-analysis of the deposited data

Results flagged for a closer look

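In aged cave gut, cngb3.2 stood at 446.8 normalized counts in cave 6, far from the 173.7 to 207.6 of the other cave libraries. It was the only such value among 72 groups of 4 libraries examined, and chance gives about 1 in 20.

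The difference between cavefish and surface fish changed with age, by the DESeq2 interaction test, for 12 of the genes named. On the log2 scale (aged difference minus young difference) the interaction was 1.65 for bik, −2.53 for bin2a, −1.31 for dhrs1, 1.48 for ei24, −3.12 for gck, −3.51 for niban1b, −3.58 for NR4A1, −2.63 for osgn1, −2.88 for sdr16c5a, −2.82 for ugdh, 4.86 for ENSAMXG00000037727 and −7.96 for ENSAMXG00000032562. By edgeR the interaction was called for niban1b, ei24 and ENSAMXG00000037727 only. With any 1 of the 15 gut libraries left out, bik, bin2a, dhrs1, ei24, niban1b, osgn1 and both unnamed genes kept the DESeq2 call. The call of gck was lost without surface 5 (adjusted p = 0.0706), that of ugdh in 2 such DESeq2 fits, that of sdr16c5a in 5 and that of NR4A1 in 7. NR4A1, an immediate early transcription factor gene chosen after its values were seen, had 7.7, 2.1, 5.5 and 2.4 normalized counts in aged cave gut, against 12.6, 18.5 and 121.5 in aged surface gut, and without surface 7 its aged difference was no longer called (DESeq2 adjusted p = 0.188).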

How the results depend on the processing

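In place of the 852 genes called between aged cave and aged surface gut, edgeR called 180, a fit with all 4 gut groups 1679 (815 higher and 864 lower, 796 of them shared with the 852), and an unadjusted p under 0.05 gave 2696. Counts between 776 and 864 came from TMM size factors, other filters on low counts, no Cook distance filter and the fit without liver-specific genes. Leaving out 1 library gave 506 to 1285 calls, with 545 without surface 6. The replicate numbers share only a number: the correlations of same-numbered deviations were −0.336, −0.033 and −0.117 over 8560 genes, and no library correlated best with its own number. A replicate block over replicates 5, 6 and 7 gave 478 calls, against 594 for the same libraries without the block. edgeR called 514 genes in young gut (DESeq2 1323) and 14 for the interaction (218). In aged brain, heart, liver and muscle it called 1776, 286, 141 and 151 (DESeq2 2384, 1137, 563 and 556). With 1 library left out, DESeq2 called 908 to 1715 genes in young gut, 141 to 488 for the interaction, 1180 to 2301 in brain, 727 to 1592 in heart, 329 to 641 in liver and 361 to 899 in muscle. For these counts the cause was not tested. Of the 48 named genes with a call, 31 were called in all 7 fits with 1 library left out. Of the 47 with an edgeR value 24 were called by edgeR. An edgeR call was a condition for naming many of them, so the 24 are no support. Of all 852 calls edgeR called 180. With TMM 47 of the 48 were called and with the block 31, and none of these settings turned a direction. With 3 and 4 libraries a group, small changes of variable genes are not resolved at this sample size.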

Other observations

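Several abundant genes with a symbol spread widely within cavefish. diabloa had 6860.8, 52407.3, 66499 and 69817.4 normalized counts in cave 5 to 8, against 2215.2, 1880.1 and 22118.5 in surface 5 to 7, and missed the threshold (log2 fold change 2.48, DESeq2 adjusted p = 0.0834). The aminopeptidase gene anpepb had 17319, 29485.7, 61201.2 and 90899.6 normalized counts in the cave libraries and 38604.5, 18671 and 15552.3 in the surface libraries. In both genes, in pck1 and in slc5a1, cave 5 was the lowest and cave 8 the highest cave library. Genes specific to gut took 32.1% to 54.8% of the counts in cavefish and 24.9% to 50.4% in surface fish. Of the 133 tested, 7 were called higher and 6 lower in cavefish (9.77%, beside 5.91% of all genes tested). Their median log2 fold change was 0.09.

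Some immune genes without a call were highest in surface 7. socs3a, a feedback inhibitor of cytokine signalling, had 414.4, 616.5, 292.9 and 164.1 normalized counts in cave libraries and 73.9, 314.8 and 1279.4 in surface libraries. cebpb, a transcription factor gene of inflammation, had 2387.1, 4715.8, 2863.1 and 4527.1 in cave libraries and 662.6, 4067.9 and 14621.1 in surface libraries. Without surface 7 the median log2 fold change of the inflammatory list was 0.62, against −0.17 with it, and 2 of its members were called higher in cavefish.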
